A study of Mus musculus with 4 samples.

Results

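The small leucine-rich proteoglycans are secreted matrix proteins that carry leucine-rich repeats and bind collagen. The members described here are the 10 genes Dcn, Bgn, Aspn, Lum, Fmod, Prelp, Kera, Omd, Epyc and Ogn. They are among 24216 rows in the deposited table and were listed by name, with earlier results of these data known. Each of the 10 had a row of its own, and all 10 were tested by the authors. The study sorted cells from molar pulp (2 libraries) and from incisor pulp (2 libraries) of XLacZ4 mice. XLacZ4 is a reporter strain in which bacterial beta-galactosidase labels pericytes and vascular smooth muscle, the mural cells of small vessels, and the cells were taken by fluorescence-activated sorting after staining with FDG, a beta-galactosidase substrate. No treatment, age or sex is given, both tissues carry the same reporter, and the labels leave unsaid if separate animals or pools gave the 2 libraries of a tooth type. Since the incisor libraries' protocol names molars as well, the tissue was read from the titles and tissue labels.

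Each value below is the authors' single FPKM (fragments per kilobase of transcript, scaled to sequencing depth) for a tissue, made by them from both of its libraries. No value per library was analysed, so no value carries an SD or an n, and no test over samples was run. FPKM is per length, which lets members be set beside each other, and the depth behind the values is unknown. A gene is called where the q value in the authors' deposited table lies under 0.05. Folds and log2 folds are molar over incisor, so that a positive log2 value means higher in molar. With a single combined value per tissue, a difference between the teeth cannot be told apart from one in sorting, preparation or sequencing, and fewer cells of a type cannot be told apart from less RNA per cell.

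Small leucine-rich proteoglycans set the diameter and spacing of collagen fibrils, and several bind growth factors of the TGF-beta family. They fall into classes by gene structure and by the spacing of cysteines near the amino terminus. Class I (Dcn, Bgn, Aspn) holds decorin and biglycan, which carry chondroitin or dermatan sulfate chains, and asporin, which lacks such chains. The class II genes (Lum, Fmod, Prelp, Kera, Omd) encode proteins of which lumican, fibromodulin, keratocan and osteomodulin can carry keratan sulfate. Class III (Epyc, Ogn) holds epiphycan and osteoglycin, also called mimecan. In teeth, decorin and biglycan are known components of predentin and dentin, and asporin is known from the periodontal ligament as a brake on mineralisation.

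Transcripts of 3 members were higher in molar, namely Dcn, Fmod and Epyc, and none was called higher in incisor. Dcn stood at 1047 FPKM in molar and 367 FPKM in incisor, Fmod at 246 FPKM in molar and 71.8 FPKM in incisor, and Epyc at 7.23 FPKM in molar and 1.33 FPKM in incisor. The folds of molar over incisor FPKM were 2.85 for Dcn, 3.43 for Fmod and 5.46 for Epyc. Calls higher in molar took in 3 of 10 members, against 11.9% of all 18770 tested genes, and calls higher in incisor 0 of 10 members, against 4.28% of them. At q under 0.01 the calls were 2 of 10 members in molar (Fmod and Epyc) and 0 in incisor, against 8.8% and 2.27% of tested genes. The authors' own mark of significance, which reaches slightly above 0.05, gave 3 and 0 members, against 12.7% and 4.69%. The other 7 members were not called, and 5 of them (Lum, Omd, Ogn, Prelp and Aspn) had the larger value in molar while Bgn and Kera had it in incisor. Over the 10 members, log2((molar FPKM + 1) / (incisor FPKM + 1)) had a median of 0.79, with each member at 1 FPKM or more in at least 1 tissue, and the 13198 tested genes at that level had a median of 0.14. A ratio above 0 was seen in 8 of 10 members and in 54.5% of those genes. These counts describe the list, and no test of the list as a whole was run.

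**Figure D1:**
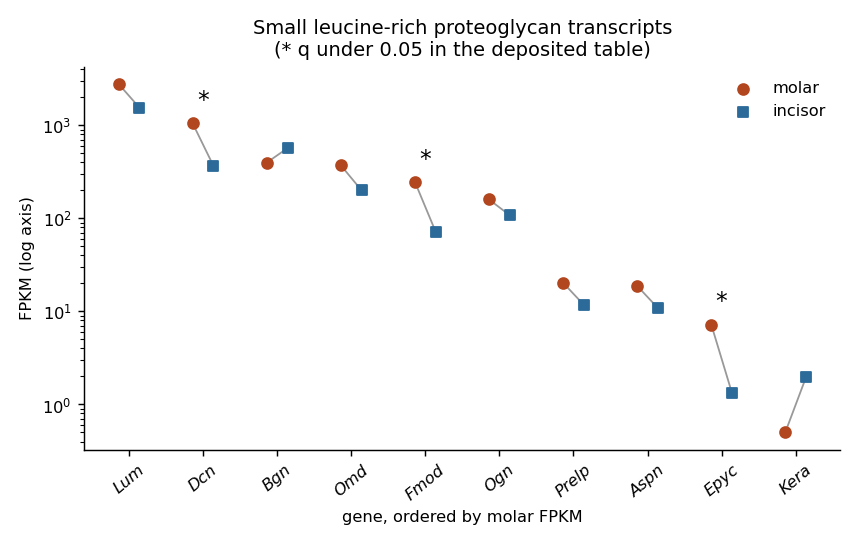
FPKM of the 10 genes (log axis) in molar (circles) and incisor (squares), 1 deposited value per tissue, joined by a line per gene and ordered by molar FPKM; stars mark q under 0.05 in the authors' deposited table. Levels ran from 2778.5 for Lum to 0.504 for Kera in molar, and Bgn and Kera are the genes whose incisor value is the higher one.

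**Figure D2:**
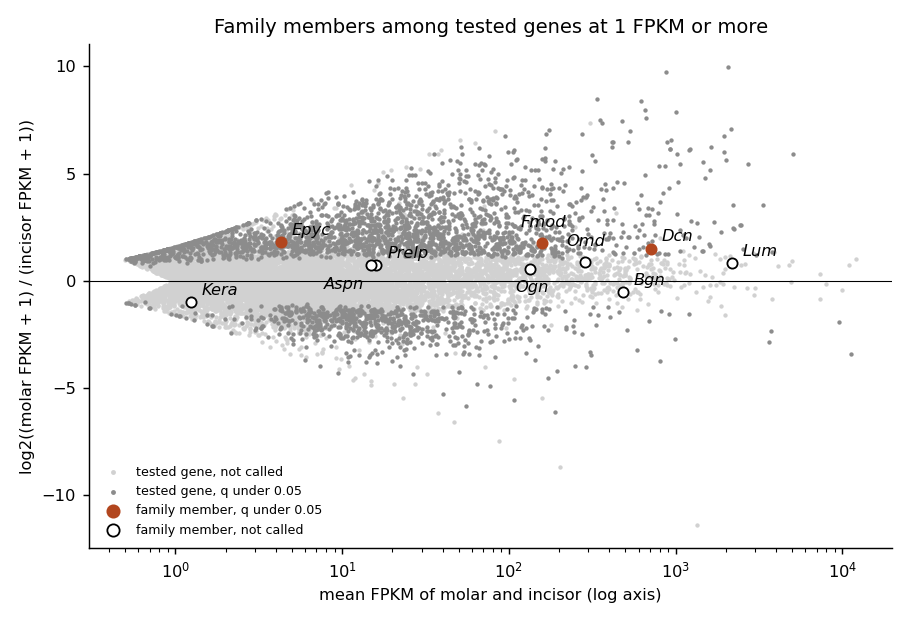
Log2((molar FPKM + 1) / (incisor FPKM + 1)) against the mean FPKM of both tissues (log axis) for tested genes with at least 1 FPKM in either tissue; light grey points were not called, dark grey points had q under 0.05, filled circles are called members and open circles the other members. Dcn, Fmod and Epyc lie at 1.51, 1.76 and 1.82, inside the spread of the called genes.

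Levels within the family spanned from abundant to barely detected transcripts, and the order of the members was similar in the teeth. In molar the order was Lum, Dcn, Bgn, Omd, Fmod, Ogn, Prelp, Aspn, Epyc and Kera. In incisor, 3 pairs of neighbours stood the other way round, with Bgn above Dcn, Ogn above Fmod and Kera above Epyc. No spread over libraries was analysed, so it cannot be said which neighbours differ. Lum, which encodes lumican, was the most abundant member in both, at rank 40 of all rows in molar and rank 41 in incisor. Together the 10 members summed to 5046 FPKM in molar and 2892 FPKM in incisor, a fold of 1.75, which was 0.619% of all FPKM in molar and 0.536% in incisor.

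Decorin and biglycan, the chondroitin and dermatan sulfate bearing pair of class I, had opposite order in the teeth. Dcn (chromosome 10, 97479609 to 97518143 on GRCm38) stood at 1047 FPKM in molar and 367 FPKM in incisor, and the authors' deposited table gave a log2 fold of 1.51 and q = 0.0288. Bgn (chromosome X, 73483602 to 73495933) stood at 397 FPKM in molar and 569 FPKM in incisor, and its log2 fold of -0.52 was not called (q = 0.346 in the authors' deposited table). Within a tissue, a ratio of 2 genes does not depend on how the tissues were scaled to each other. It can depend on how the 2 libraries of the tissue were combined. Dcn stood at 2.64 times Bgn in molar and at 0.645 times Bgn in incisor, a difference of ratios that was not tested.

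Asporin, the third class I protein, was low in both teeth. Aspn (chromosome 13, 49544443 to 49567565) stood at 18.8 FPKM in molar and 10.9 FPKM in incisor (q = 0.584 in the authors' deposited table). Prelp, a class II gene for a heparin-binding protein that links matrix to basement membrane (chromosome 1, 133910304 to 133921414), had nearly the same values, 20.3 FPKM in molar and 11.7 FPKM in incisor. The deposited log2 folds of Aspn and Prelp were both 0.79, yet the authors' deposited table gave a test statistic of 0.29 and p = 0.4998 for Aspn against 1.49 and p = 0.0527 for Prelp. Neither passed q under 0.05, and q was 0.191 for Prelp in the authors' deposited table.

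Class II held the most abundant member and 1 of the 3 called ones. Fmod (chromosome 1, 134037254 to 134048277), which encodes fibromodulin, a regulator of fibril growth and of collagen cross-linking, stood at 246 FPKM in molar and 71.8 FPKM in incisor, with a log2 fold of 1.78 and q = 0.00508 in the authors' deposited table. Lum (chromosome 10, 97565128 to 97572703), whose product binds the same region of collagen as fibromodulin, stood at 2778.5 FPKM in molar and 1551 FPKM in incisor and was not called (log2 fold 0.84, q = 0.252 in the authors' deposited table). Lum stood at 11.3 times Fmod in molar and 21.6 times Fmod in incisor. Omd (chromosome 13, 49582462 to 49592822), the gene of osteomodulin, an acidic matrix protein of bone and dentin, stood at 371 FPKM in molar and 199.6 FPKM in incisor and was not called (q = 0.252 in the authors' deposited table).

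Kera, the gene of the corneal proteoglycan keratocan (chromosome 10, 97606879 to 97613692), was the lowest member in molar. Its values were 0.504 FPKM in molar and 1.97 FPKM in incisor, and its log2 fold of -1.97 was not called (q = 0.373 in the authors' deposited table). Olfactory, vomeronasal and taste receptor genes, 1493 rows examined after the values were seen as a gauge of low signal, had a 99th percentile of 3.77 FPKM in molar and 0.146 FPKM in incisor. The molar value of Kera lies within that range, and the molar value of each other member lies above it.

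In class III the scarce member was called and the abundant one was not. Epyc, the gene of epiphycan, a proteoglycan of growth plate cartilage (chromosome 10, 97644068 to 97682454), stood at 7.23 FPKM in molar and 1.33 FPKM in incisor, with a log2 fold of 2.45 and q = 0.00124 in the authors' deposited table. That was the largest fold of the 10 members, in one of the scarcest. The chemoreceptor gauge of low signal was itself higher in molar, at 3.77 FPKM against 0.146 FPKM in incisor. Its part in the Epyc difference was not tested. With a pseudocount of 1 FPKM its log2 ratio was 1.82, since the pseudocount understates folds of low genes. Of the 2561 exonic bases of Epyc over its GENCODE transcripts, 1041 (40.6%) lie opposite exons of Gm10754, a gene on the other strand that was listed at 0.0462 FPKM in molar and at 0 in incisor and was not tested. Whether the authors' counting used strand is not given in the sources used here, so reads of Epyc and Gm10754 cannot be told apart over those bases. The authors' deposited table lists Epyc at a longer locus, 97644068 to 97967090, which ends where Gm10754 ends. How reads were divided within that Epyc locus is not given either. Ogn (chromosome 13, 49608046 to 49624501), whose protein was first purified from bone, stood at 159.5 FPKM in molar and 108 FPKM in incisor and was not called (q = 0.404 in the authors' deposited table).

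Sharing of the family sum among its members differed between the teeth mainly at Dcn and Bgn. Lum made up 55.1% of the summed FPKM in molar and 53.6% in incisor. Dcn made up 20.7% in molar and 12.7% in incisor, and Bgn 7.87% in molar and 19.7% in incisor. Fmod made up 4.87% in molar and 2.48% in incisor, while Omd gave 7.36% and Ogn 3.16% in molar against 6.90% and 3.73% in incisor. By class, class II held 67.7% of the sum in molar and 63.5% in incisor, class I 29.0% in molar and 32.7% in incisor, and class III 3.30% in molar and 3.78% in incisor. These shares are descriptions with no replicate error.

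**Figure D3:**
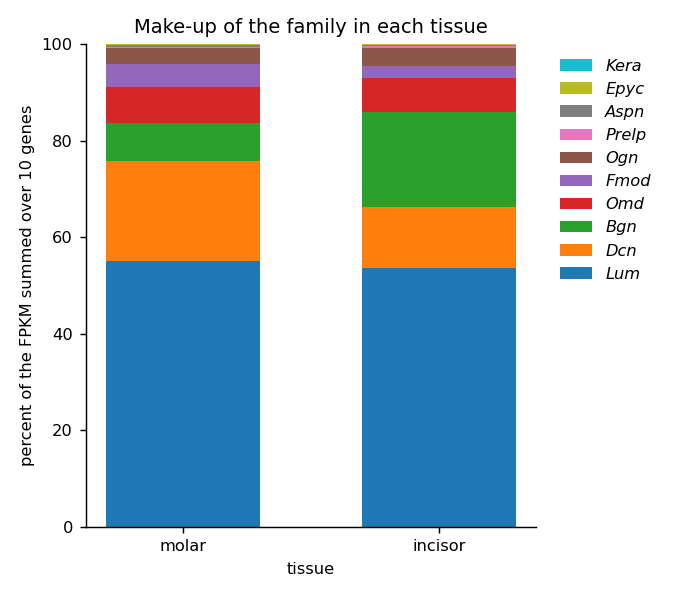
Percent of the FPKM summed over the 10 genes that each gene takes in molar (left bar) and incisor (right bar), stacked from 0 to 100. Lum takes 55.1% in molar and 53.6% in incisor, the Dcn segment is larger in molar and the Bgn segment larger in incisor.

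The called members lay above 0 under both other scalings tried, while Ogn changed sign under 1 of them. All FPKM summed to 815089 in molar and 539574 in incisor, a log2 ratio of 0.60. With both tissues set to equal totals, the log2 folds less that shift were 1.85 for Epyc, 1.18 for Fmod and 0.92 for Dcn. On the same scale Omd stood at 0.30, Lum at 0.25, Aspn and Prelp each at 0.20, Ogn at -0.03, Bgn at -1.11 and Kera at -2.56. Less the median ratio of the tested genes at 1 FPKM or more, Ogn stood at 0.42 and Bgn at -0.66. Calls under another scaling were not tested, as the q values are the authors' own.

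**Figure D4:**
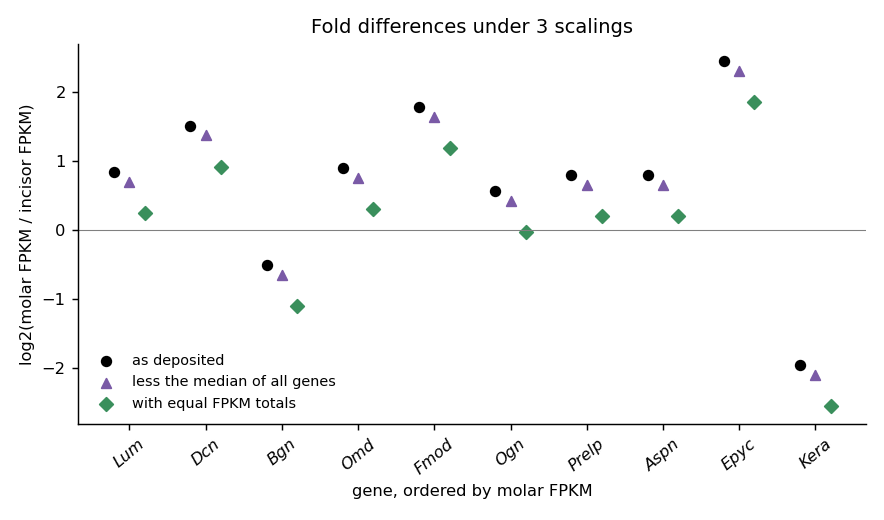
Log2 of molar over incisor FPKM per gene as deposited (circles), less the median log2 ratio of tested genes at 1 FPKM or more (triangles) and with equal FPKM totals in both tissues (diamonds). Ogn crosses 0, at 0.56 as deposited and -0.03 with equal totals, while Bgn and Kera lie below 0 and the other 7 genes above 0 under each scaling.

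The members other than Bgn lie in 3 chromosomal groups, and Bgn lies alone on chromosome X. On chromosome 10, Dcn, Lum, Kera and Epyc follow each other on the plus strand within 203 kb, with gaps of 47.0, 34.2 and 30.4 kb. Dcn and Epyc, at the ends of the group, were called higher in molar, and Lum and Kera between them were not called. Differences between these neighbours were not tested. On chromosome 13, the leucine-rich repeat gene Ecm2 and the members Aspn, Omd and Ogn follow each other within 120 kb, all inside the span of Cenpp, a centromere protein gene on the opposite strand. None of Aspn, Omd, Ogn, Ecm2 and Cenpp was called. Omd stood at 19.8 times Aspn in molar and 18.4 times Aspn in incisor. Cenpp stood at 23.3 FPKM in molar and 14.8 FPKM in incisor. In GENCODE M21 its exons overlap 7 exonic bases of Aspn and no exonic base of Omd or Ogn. The authors' deposited table, however, lists Aspn, Omd and Ogn at the same locus, 49464059 to 49652731, and not at the spans given above. How reads were divided among the genes of that locus is not given in the sources used here. Epyc, on chromosome 10, was also listed at a locus longer than its span, as given above. On chromosome 1, Prelp and Fmod are 116 kb apart, and the class III gene Optc next to Prelp stood at 1.44 FPKM in molar and 0.875 FPKM in incisor.

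The coding sequences of the members were compared in pairs by global alignment, with no unrelated genes aligned as a baseline. Words of 32 bases were compared over whole transcripts and not only over coding sequence. Such words shared between members were found only for Bgn, with a transcript of 1 other member. Bgn had 12 shared words, and genes outside the family, such as 1110008P14Rik, shared words with it too. Dcn and Bgn had the highest identity of the 45 pairs, with 67.2% identical bases over 1037 aligned coding positions. The 14 pairs within a class ranged from 55.3% to 67.2% with a median of 59.5%, and the 31 pairs across classes from 56.3% to 66.8% with a median of 60.9%. The transcripts of Dcn, Lum, Fmod, Ogn, Aspn and Kera shared no such word with a transcript of another gene. The share of such words was 0.506% for Bgn, 6.49% for Omd, 9.04% for Prelp and 27.0% for Epyc, where the sharing gene was Gm10754.

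Promoter windows from RefSeq (build GRCm38.p6, 250 bases before to 50 after a start site) were matched for 8 of the 10 members, not for Dcn and Lum, and gave 9 windows, as Epyc has 2 start sites. The windows of Fmod and Epyc (the first of its 2), the called members with an entry, are shown with that of Bgn, which had its larger value in incisor. They are in the direction of transcription, all on the plus strand, at chr1:134037004-134037303 for Fmod, chr10:97643818-97644117 for Epyc and chrX:73483351-73483650 for Bgn. Capitals mark CANNTG (the E-box) and GGGCGG (the GC box), searched on both strands.
Fmod: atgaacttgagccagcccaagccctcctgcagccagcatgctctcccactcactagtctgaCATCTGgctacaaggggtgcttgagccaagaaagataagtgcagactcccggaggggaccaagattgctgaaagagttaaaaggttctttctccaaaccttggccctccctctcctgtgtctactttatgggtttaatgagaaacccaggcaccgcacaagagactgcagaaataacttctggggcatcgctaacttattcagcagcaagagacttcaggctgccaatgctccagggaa
Epyc: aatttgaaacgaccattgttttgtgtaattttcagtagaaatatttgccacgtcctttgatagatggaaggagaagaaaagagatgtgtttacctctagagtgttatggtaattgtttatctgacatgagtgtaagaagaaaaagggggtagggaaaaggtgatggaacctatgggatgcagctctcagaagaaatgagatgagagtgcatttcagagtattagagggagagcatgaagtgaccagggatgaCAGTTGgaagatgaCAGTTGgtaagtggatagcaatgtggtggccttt
Bgn: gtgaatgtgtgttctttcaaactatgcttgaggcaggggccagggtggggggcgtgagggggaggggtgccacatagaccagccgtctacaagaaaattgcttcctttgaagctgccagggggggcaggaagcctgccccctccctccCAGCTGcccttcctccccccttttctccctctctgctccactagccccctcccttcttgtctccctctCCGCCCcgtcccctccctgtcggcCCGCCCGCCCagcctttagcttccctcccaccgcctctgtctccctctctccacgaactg
GGGCGG matched 3 times in the Bgn window, each time on the reverse strand and with 2 of the matches overlapping, and in no other of the 9 member windows, against 35.6% of 32817 windows of all genes. CANNTG occurred in 7 of 9 member windows, among them those of Fmod, Epyc and Bgn, and in 72.3% of all windows. TGANTCA, the AP-1 motif, occurred in none of the 9 and in 7.81% of all, and TATAAA in those of Aspn and Ogn and in 13.6% of all. TGTGGT, the RUNX core, occurred in the Ogn window and the Epyc window shown, and in 16.8% of all. The other Epyc window had no TGTGGT. The GC content was 63.7% for Bgn, 51.0% for Fmod and 40.3% for the Epyc window shown, with a median of 52.7% over all windows. It was 32.3% for the other Epyc window. A match describes letters in a window and not a site.

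Genes that build, bind or cut these proteins were called in both directions. Over 7 lists with 120 genes, all tested, the calls were 12 toward molar (10%) and 16 toward incisor (13.3%), against 11.9% and 4.28% of all tested genes. Of the 8 other leucine-rich repeat genes of the family, none was called in the authors' deposited table. The highest of them were Tsku, the gene of tsukushi, at 4.38 FPKM in molar and 2.40 FPKM in incisor, and Ecm2 at 3.52 FPKM in molar and 3.56 FPKM in incisor.

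Among 26 genes of chondroitin and dermatan sulfate synthesis, the calls were 3 toward molar and 4 toward incisor, and the 21 of them at 1 FPKM or more in either tissue had a median log2 ratio of -0.08. Higher in incisor was Papss1, which makes the sulfate donor PAPS, at 11.0 FPKM in molar and 87.6 FPKM in incisor (q = 0.000664 in the authors' deposited table). Papss2, another PAPS synthase gene, was called too, at 2.21 FPKM in molar and 10.1 FPKM in incisor. So were Ugdh, which makes UDP-glucuronate, at 9.98 FPKM in molar and 30.4 FPKM in incisor, and the chain polymerase gene Chsy1 at 9.01 FPKM in molar and 25.6 FPKM in incisor. Higher in molar were Uxs1, which makes UDP-xylose for the linker, at 8.97 FPKM in molar and 1.46 FPKM in incisor, and the 4-O-sulfotransferase gene Chst12 at 48.5 FPKM in molar and 17.2 FPKM in incisor. The other molar-higher gene, named after its values were seen, was Csgalnact1, whose enzyme starts and extends chondroitin chains, at 1.74 FPKM in molar and 0.322 FPKM in incisor. Dse, the epimerase that turns chondroitin into dermatan sulfate, was not called, at 11.3 FPKM in molar and 19.1 FPKM in incisor, nor was the linker enzyme gene B3gat3, at 16.3 FPKM in molar and 14.5 FPKM in incisor. Of 9 keratan sulfate genes, 1 was called higher in incisor and none higher in molar. It was the galactosyltransferase gene B4galt1, at 10.7 FPKM in molar and 57.9 FPKM in incisor. The sulfotransferase gene Chst1 (6.51 FPKM in molar and 11.6 FPKM in incisor) and Fut8 (5.07 FPKM in molar and 7.98 FPKM in incisor) were not called.

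The collagens that these proteoglycans bind were called in both directions. Of 16 collagen genes, 3 were called in each direction, with a median log2 ratio of -0.20 over the 15 at 1 FPKM or more in either tissue. Col1a1, the main chain of dentin and bone collagen, stood at 154 FPKM in molar and 316 FPKM in incisor, and Col1a2 at 126 FPKM in molar and 174 FPKM in incisor, neither of them called (q = 0.0778 and q = 0.305 in the authors' deposited table). Col6a1, of the beaded filaments, was higher in incisor, at 35.5 FPKM in molar and 107 FPKM in incisor, as were Col27a1 (1.73 FPKM in molar and 9.61 FPKM in incisor) and Col12a1 (5.44 FPKM in molar and 13.7 FPKM in incisor). The cartilage collagen gene Col2a1 was higher in molar, at 4.11 FPKM in molar and 0.525 FPKM in incisor, as were Col5a3 (5.81 FPKM in molar and 1.97 FPKM in incisor) and Col24a1 (2.15 FPKM in molar and 0.675 FPKM in incisor).

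Growth factors and receptors listed as partners of decorin, biglycan or their relatives, together with the matrix genes Fbn1 and Eln, also divided. Of these 22 genes, 3 were called in each direction. The median log2 ratio was -0.34 over the 21 at 1 FPKM or more in either tissue. Tgfb3, a ligand of the TGF-beta family, was higher in incisor, at 30.5 FPKM in molar and 74.3 FPKM in incisor, as was the co-receptor gene Tgfbr3, at 0.725 FPKM in molar and 4.56 FPKM in incisor. Lrp6, a Wnt co-receptor gene, stood at 2.33 FPKM in molar and 6.83 FPKM in incisor and was called too. Bmp2 was higher in molar, at 26.7 FPKM in molar and 9.68 FPKM in incisor, and so were the purine receptor gene P2rx4 (43.0 FPKM in molar and 4.94 FPKM in incisor) and the VEGF receptor gene Kdr (2.52 FPKM in molar and 0.297 FPKM in incisor). Cd14, a co-receptor through which biglycan acts on Toll-like receptors, was not called, at 1139 FPKM in molar and 626 FPKM in incisor, nor was Bmp4, at 34.8 FPKM in molar and 49.2 FPKM in incisor.

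Of 14 genes for proteases and their enhancers, 1 was called higher in incisor and none higher in molar, with a median log2 ratio of -0.72 over the 9 of them at 1 FPKM or more in either tissue. Mmp13, a collagenase that also cleaves fibromodulin, stood at 4.37 FPKM in molar and 375 FPKM in incisor, 85.9-fold higher in incisor (q = 0.000664 in the authors' deposited table). Pcolce, an enhancer of procollagen processing, was not called, at 319 FPKM in molar and 460.4 FPKM in incisor, nor was the gelatinase gene Mmp2, at 65.7 FPKM in molar and 135 FPKM in incisor. Among 25 genes of other proteoglycans and their link proteins, 3 were called toward molar and 4 toward incisor, with a median log2 ratio of -0.05 over the 21 at 1 FPKM or more in either tissue. Srgn, the granule proteoglycan of blood cells, was higher in molar, at 739 FPKM in molar and 101 FPKM in incisor, as was Spock2, at 3.51 FPKM in molar and 1.08 FPKM in incisor. The other molar-higher gene, Ncan, also named after its values were seen, stood at 0.897 FPKM in molar, against a listed 0 in incisor. Higher in incisor were the cell-surface heparan sulfate proteoglycan genes Sdc4 (159 FPKM in molar and 458 FPKM in incisor), Sdc2 (21.3 FPKM in molar and 72.5 FPKM in incisor) and Gpc1 (3.61 FPKM in molar and 21.2 FPKM in incisor), with the link protein gene Hapln1 (6.34 FPKM in molar and 21.6 FPKM in incisor). Sdc1 (70.7 FPKM in molar and 58.2 FPKM in incisor) and Gpc3 (54.1 FPKM in molar and 72.4 FPKM in incisor) were not called. The molar values of Kdr, Col24a1, Csgalnact1, Spock2 and Ncan lie within the chemoreceptor range of up to 3.77 FPKM and are uncertain. Also within it are the molar values of Gpc1, Lrp6, Papss2, Col27a1 and Tgfbr3, called higher in incisor, and of Ecm2 and Optc, not called.

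**Figure D5:**
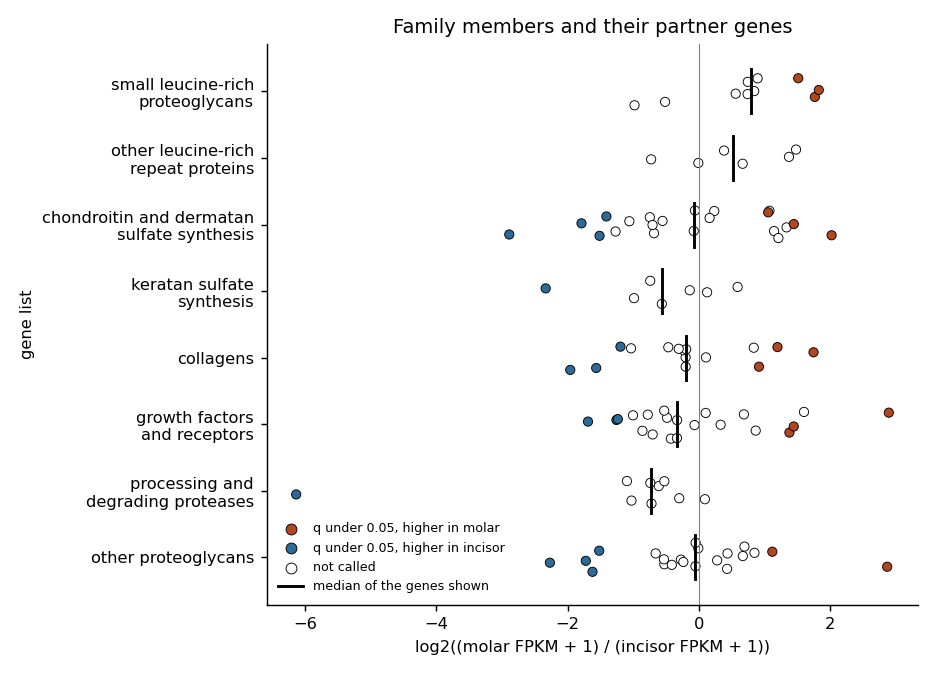
Log2((molar FPKM + 1) / (incisor FPKM + 1)) of the 10 family members and of the 100 genes in 7 partner lists with at least 1 FPKM in either tissue; orange points were called higher in molar, blue points higher in incisor, open points were not called, and bars mark medians. The family median lies at 0.79, while the medians of 6 partner lists lie below 0 and that of the other leucine-rich repeat genes at 0.52.

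The sorted fractions held transcripts of several cell types, and their markers differed between the teeth. Mural markers went both ways, with 2 of 10 pericyte genes called in each direction and sums of 416 FPKM in molar and 611 FPKM in incisor. The order of those sums rested on Rgs5. Without Rgs5 the other 9 genes summed to 289 FPKM in molar and 73.4 FPKM in incisor, a check added after the values were seen. Most of the 289 FPKM came in turn from Ndufa4l2 and Kcnj8, the pericyte genes called toward molar. Ndufa4l2 stood at 145 FPKM in molar and 4.35 FPKM in incisor, and Kcnj8 at 108 FPKM in molar and 15.98 FPKM in incisor. Besides Rgs5, Pdgfrb was called toward incisor, at 12.6 FPKM in molar and 30.3 FPKM in incisor. Either order of the pericyte sums thus rested on few genes. Of 7 smooth muscle genes 2 were called toward molar and 1 toward incisor, with sums of 69.1 FPKM in molar and 242 FPKM in incisor, and Myocd was the single mural marker listed at 0, in incisor. Fibroblast markers, cells known for decorin and lumican, had 2 of 11 tested genes called higher in incisor (Mfap4 and Pdgfra) and none higher in molar. They summed to 752 FPKM in molar and 1701 FPKM in incisor. Dpt and Clec3b were at 0 in incisor and at 0.230 and 0.0762 FPKM in molar, within the chemoreceptor range. Dpt was not called and Clec3b was not tested. Ligament and tendon markers had 3 of 4 tested genes called higher in incisor and summed to 23.2 FPKM in molar and 120 FPKM in incisor. Odontoblast and osteoblast markers had 1 of 8 called toward molar and 2 toward incisor, with sums of 330 FPKM in molar and 439 FPKM in incisor.

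Of 9 endothelial markers 8 were called toward molar, and the list summed to 244 FPKM in molar and 11.1 FPKM in incisor, with Cldn5 at 0 in incisor. Of 8 dental epithelial markers 7 were called toward incisor, and the list summed to 2632 FPKM in molar and 23443 FPKM in incisor. Macrophage markers had 2 of 8 called higher in molar and summed to 8069 FPKM in molar and 5232 FPKM in incisor. For cartilage, of which Epyc is known, 3 of 7 tested markers were called toward molar and 1 toward incisor, with sums of 131 FPKM in molar and 69.1 FPKM in incisor and Ucma at 0 in both. Without Lect1, its most abundant gene, that list summed to 22.2 FPKM in molar and 34.4 FPKM in incisor. Most of the 34.4 FPKM came from Sox9 (10.6 FPKM in molar and 31.2 FPKM in incisor), the 1 marker called toward incisor. Besides Lect1, Col2a1 (4.11 FPKM in molar and 0.525 FPKM in incisor) and Col9a1 (5.68 FPKM in molar and 1.21 FPKM in incisor) were called toward molar. The marker lists other than pericyte and cartilage kept the order of their sums without their most abundant gene. Schwann cell markers had none of 4 called, with sums of 271 FPKM in molar and 292 FPKM in incisor. The part of these cells in the values of Dcn, Fmod and Epyc was not tested.

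Other genes stood close to the called members in the plane of log2(FPKM + 1) of molar and incisor, over 1 value per tissue. The nearest to Dcn were Atp5c1 (1046 FPKM in molar and 378 FPKM in incisor) and Npm1 (1014 FPKM in molar and 377 FPKM in incisor). Nearest to Fmod were Ctsl (235 FPKM in molar and 72.8 FPKM in incisor) and Fcgr2b (243 FPKM in molar and 75.4 FPKM in incisor). Epyc had Nfe2l3 (7.17 FPKM in molar and 1.39 FPKM in incisor) and Cxxc5 (7.32 FPKM in molar and 1.42 FPKM in incisor) beside it. The distances, from 0.04 to 0.07 log2 units, rest on 2 values per gene and group genes of unlike kinds.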

How the data were processed

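RNA of FDG-positive cells from molar and incisor pulp of XLacZ4 mice was sequenced, 2 libraries per tissue. The deposited table holds 1 FPKM per gene and tissue, which the authors combined from the libraries. Per the file headers, the authors also gave log2 folds, a signed test score, and a p-value and q-value per gene. Trim Galore, HISAT2, edgeR and mm10 are named in the submitters' processing notes. Not given in the sources used here are its annotation, its scaling and the program behind it. The description labels link each condition to its tissue. For the members the deposited log2 fold equalled log2 of molar over incisor FPKM. The count and FPKM tests that the design allowed for values per library were not run, as no such values were analysed. The smallest p in the table was 5e-05, with q = 0.000664, and the authors' own mark reached q = 0.0600.

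Members were matched by gene symbol. Partner genes and cell markers were listed by name, and 1 symbol (Cnmd) was found under an older name, Lect1, through RefSeq. The members and lists were chosen with earlier results of these data known. The named genes are all members, up to 6 called genes per partner list by size of the log2 ratio, the 2 most abundant genes not called, and the 2 genes nearest to each called member. Gene spans, exons and transcripts came from GENCODE M21 on GRCm38, the assembly of mm10. Coding sequences were aligned globally with Biopython 1.88, and tables were made with pandas 2.3.3 under Python 3.11.15. Counting of calls, ratios and motif search were tested on simulated data. Alternatives were other q thresholds, pseudocounts, minimum FPKM values and scalings. Counting error cannot be given, since depth is unknown from FPKM.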

Additional observations from a re-analysis of the deposited data

How the results depend on the processing

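No paired analysis was possible because the table holds 1 combined value per tissue, and leaving out a library was not possible for the same reason. The 3 members called higher in molar were 2 at q under 0.01, where Dcn was lost, and 3 with the authors' own mark or with a minimum of 1 or 5 FPKM; none was called higher in incisor under any of these. The median log2 ratio of members, 0.79, was 0.81 with a pseudocount of 0.1, 0.72 with a pseudocount of 5, 0.65 with median centring, 0.21 with equal FPKM totals and 0.84 with a minimum of 5 FPKM, and was not moved without a minimum. The number of members with a ratio above 0 was 7 with equal totals and 8 otherwise. Partner genes numbered 12 called toward molar and 16 toward incisor. At q under 0.01 they numbered 5 and 7 of 120, against 8.8% and 2.27% of all tested genes. A minimum of 5 FPKM in either tissue left 6 called toward molar and 15 toward incisor. The share of all tested genes at that minimum was not computed. Without Lum, Dcn made up 46.2% of the summed FPKM in molar and 27.4% in incisor. Dcn, Fmod and Epyc kept a positive ratio under both pseudocounts and both scalings. FPKM carry no depth, so low members such as Kera and Epyc have no stated precision.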
